A study of Mus musculus with 4 samples.

Results

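The 8 genes described here are known for the formative or primed state of mouse pluripotency. They comprise the transcription factors Otx2, Pou3f1, Foxd3, Sox3, Zic2, Zic5 and Sall2 and the signalling ligand Fgf5. They were chosen as a gene set by name, and not by a threshold on their values. All 8 are among the 46078 mouse genes of the count tables. Wild-type mouse embryonic stem (ES) cells, held naive in 2i (inhibitors of the kinases MEK and GSK3, to which the study's routine culture medium added the cytokine LIF), were sorted through a small gate on forward and side scatter or taken ungated. Both populations were then replated on laminin for 6 h, either in 2i or in N2B27, the basal medium that lets cells leave naive pluripotency. Single cells were next sorted onto plates for Smart-seq2, a full-length protocol without molecular identifiers. The medium and the gate define 4 groups of 1 sample each, with 24 cells per sample, and where 4 values follow each other they stand for small then ungated cells in 2i, followed by small then ungated cells in N2B27. With 1 sample per group there is no test between groups, and 95% intervals cover counting error only.

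Naive ES cells correspond to the preimplantation epiblast, and they pass through a formative state before they become primed for lineage choice. OTX2 is a homeodomain factor that redirects the pluripotency factor OCT4 to new enhancers at this step, and FGF5, POU3F1 and the ZIC factors are widely used as markers of the postimplantation epiblast. Removal of the inhibitors releases FGF/ERK signalling, which is upstream of much of this programme. The comparison asked how far the programme had started within 6 h, and in how many cells.

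Of the members, only Otx2 and Zic5 reached 10 or more counts in more than 3 cells of either medium. In N2B27, 10 or more counts of Otx2 were found in 8 of 41 cells and of Zic5 in 4, and each of the other 6 members reached this level in at most 3 cells. In 2i the same level of Otx2 was reached by 15 of 34 cells and that of Zic5 by 7. Over all genes, the share of cells at this level was also more often lower than higher in N2B27. Between ungated cells it was lower by 20 points or more for 19.1% of genes and higher for 1.02%. Between small cells it was lower for 12.1% and higher for 3.28%. Cells with 100 or more counts of Otx2 were few, 6 in N2B27 and 2 in 2i. Of the 2 members with enough counts to compare between ungated cells, and the 1 between small cells, 0 were at least 2-fold higher in N2B27, where 10.4 and 25.3% of all genes were. For Otx2 between ungated cells, 4 of the alternative settings passed 2-fold.

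The members lie on several chromosomes (positions are in GRCm38). Otx2 is at chr14:48657677-48673819 on the minus strand, Sall2 at chr14:52311172-52328762 on the same strand, and Zic5 (chr14:122456795-122465677, minus) and Zic2 (chr14:122475435-122479852, plus) are neighbours that are transcribed away from each other. Foxd3 is at chr4:99656299-99658622 and Pou3f1 at chr4:124656807-124660655, both on the plus strand. Fgf5 is at chr5:98254184-98277030 on the plus strand and Sox3 at chrX:60891366-60893430 on the minus strand. RefSeq promoters of GRCm38.p6, each running from 250 bases before to 50 bases after an annotated start, were found for 5 of the 8 members (Otx2, Fgf5, Foxd3, Zic5 and Sall2), with 9 entries in all. Of these, 4 are printed 5′ to 3′ on the strand of the gene, with the motif matches in capitals. They belong to Otx2 and to members that reached 10 counts in the same cell as Otx2. Of the Otx2 entries, only the one with a motif match is printed. The first is the Otx2 entry at chr14:48665060-48665359, the second that of Zic5 at chr14:122465609-122465908, the third that of Foxd3 at chr4:99656049-99656348 and the last that of Fgf5 at chr5:98253934-98254233.
Otx2: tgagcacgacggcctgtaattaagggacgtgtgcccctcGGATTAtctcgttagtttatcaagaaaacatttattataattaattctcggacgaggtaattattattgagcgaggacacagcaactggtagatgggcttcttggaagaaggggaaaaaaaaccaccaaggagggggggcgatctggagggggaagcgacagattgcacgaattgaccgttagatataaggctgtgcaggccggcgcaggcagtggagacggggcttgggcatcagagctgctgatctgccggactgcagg
Zic5: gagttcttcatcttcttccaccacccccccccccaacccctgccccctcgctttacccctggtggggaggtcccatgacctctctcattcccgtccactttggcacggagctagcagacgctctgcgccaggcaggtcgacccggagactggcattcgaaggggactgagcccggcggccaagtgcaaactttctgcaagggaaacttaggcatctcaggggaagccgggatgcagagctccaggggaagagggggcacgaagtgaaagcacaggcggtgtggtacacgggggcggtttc
Foxd3: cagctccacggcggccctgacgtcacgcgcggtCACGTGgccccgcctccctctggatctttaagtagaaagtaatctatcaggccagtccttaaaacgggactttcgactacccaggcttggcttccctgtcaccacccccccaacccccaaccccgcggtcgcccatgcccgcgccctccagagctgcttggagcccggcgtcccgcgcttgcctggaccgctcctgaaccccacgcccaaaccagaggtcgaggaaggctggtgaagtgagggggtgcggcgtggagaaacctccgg
Fgf5: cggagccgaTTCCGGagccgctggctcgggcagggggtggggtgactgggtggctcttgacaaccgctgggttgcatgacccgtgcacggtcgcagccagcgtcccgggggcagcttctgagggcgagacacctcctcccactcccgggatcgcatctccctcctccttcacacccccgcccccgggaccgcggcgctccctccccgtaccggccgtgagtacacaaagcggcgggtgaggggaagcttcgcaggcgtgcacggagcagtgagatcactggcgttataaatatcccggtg

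The 5 motifs searched on both strands were TAATCC (preferred by OTX-type homeodomains), ATGCAAAT (the octamer of POU factors), CACGTG (an E-box), CTTTGAT (TCF/LEF) and CCGGAA (ETS). No window held more than 1 match. TAATCC occurred once in the printed Otx2 window, on the opposite strand and 211 bases before the start, and in none of the other 3 Otx2 entries. Of all 32851 promoters, 7.06% hold it. The Foxd3 window held CACGTG 217 bases before the start, a motif found in 7.15% of all promoters, and the Fgf5 window held CCGGAA on the opposite strand 241 bases before the start, found in 14.9%. Zic5 and Sall2 windows held no match, and ATGCAAAT (1.74% of promoters) and CTTTGAT (3.73%) matched no member. The observed to expected CpG ratio was 0.89 in the printed Otx2 window, 0.83 in that of Fgf5, 0.79 in that of Foxd3 and 0.51 in that of Zic5. The other Otx2 entries were at 0.54, 0.47 and 0.46 and those of Sall2 at 0.36 and 0.15, beside a median of 0.38 over all promoters.

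After filtering per plate, 75 of 96 cells were kept (12, 22, 20 and 21). Kept cells held 1364155 to 4844170 counts on genes. Median genes per cell were 7603, 9516, 7463 and 8200, and median spike-in shares 3.47, 1.28, 2.45 and 1.14%. All cells in 2i were on 1 plate and lane and all in N2B27 on another, so the effects of medium, plate and lane cannot be told apart. The plates share all 48 of their index pairs, and the gates lie on different index rows of a plate. In 2i small 2 kept cells stand apart, one with 15712 genes detected and a spike-in share of 0.0673%, the other with 4612 genes and 40.9%. Each of the 8 ES cell markers (Pou5f1, Sox2, Nanog, Zfp42, Esrrb, Sall4, Dppa5a and Utf1) had counts in every group, and 7 or 8 of them had 10 or more counts in 50% or more of a group's cells. Values below are raw counts per cell unless they are called normalized counts, which were divided by DESeq2 size factors.

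**Figure D1:**
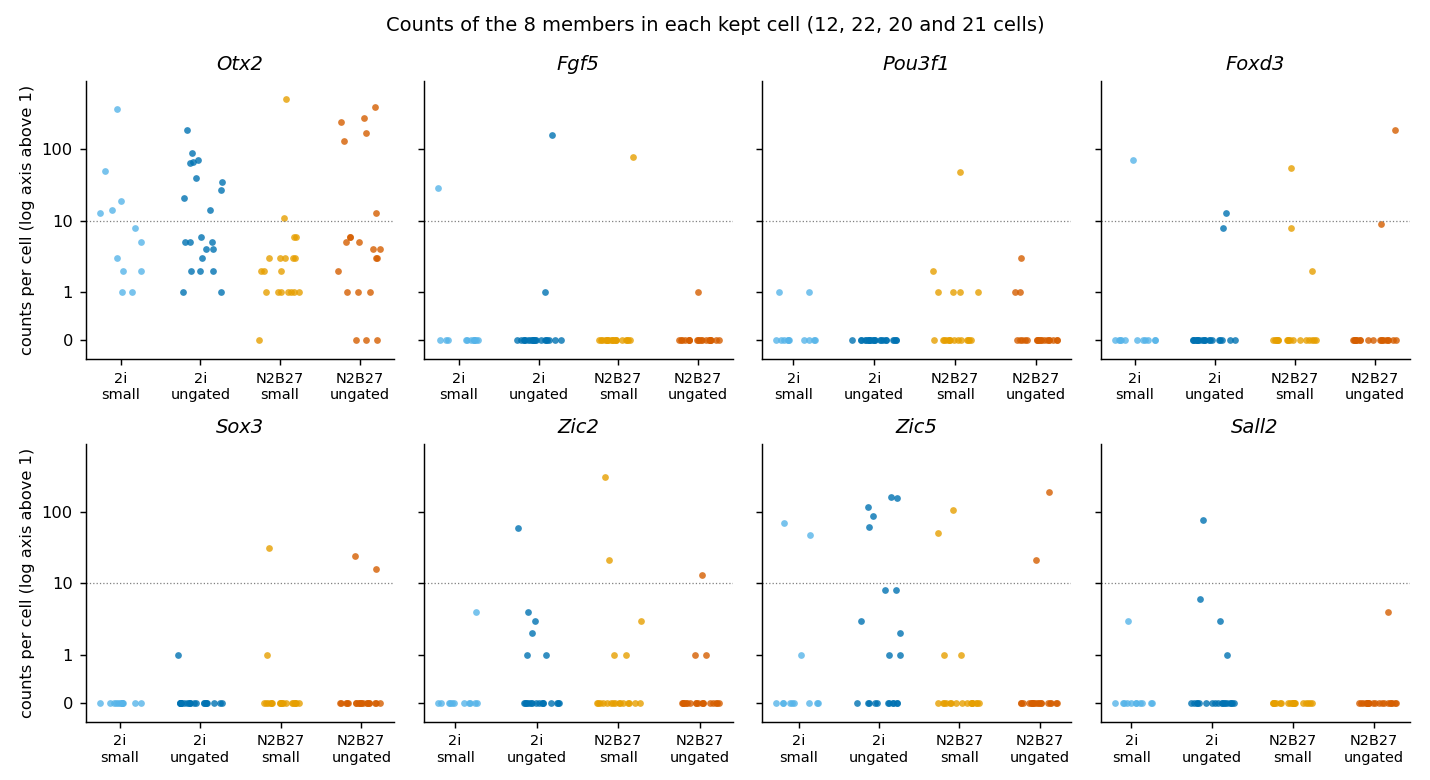
Counts of each member in each kept cell (points; vertical axis in counts, logarithmic above 1) in each group (12 and 22 cells in 2i, 20 and 21 in N2B27). The dotted line is at 10 counts. Otx2 had counts in nearly all cells but 10 or more in 5, 10, 2 and 6 of them, while the other members had none in most cells.

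Otx2 was the member with the most cells with a count. In 2i it was counted in all 12 small and all 22 ungated cells, and N2B27 left 1 of 20 small and 3 of 21 ungated cells without a count. Most of these counts were low, between 1 and 9 in 48 of the 75 cells. In 2i small its counts ran from 1 over a median of 6.5 to 369, and in 2i ungated from 1 over 5.5 to 187. In N2B27 small they ran from 0 over 2 to 499 and in N2B27 ungated from 0 over 4 to 388. The groups overlapped over nearly their whole range, and the difference lay in the upper part of it. The 5 highest cells of N2B27 ungated held 131, 167, 241, 270 and 388 counts, and the next held 13. The 5 highest of 2i ungated held 65, 66, 71, 88 and 187 counts, followed by 5 cells between 14 and 40. In N2B27 small a single cell with 499 counts gave 90.7% of the group's 550 counts, and in 2i small the highest cell gave 75.8% of 487.

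**Figure D2:**
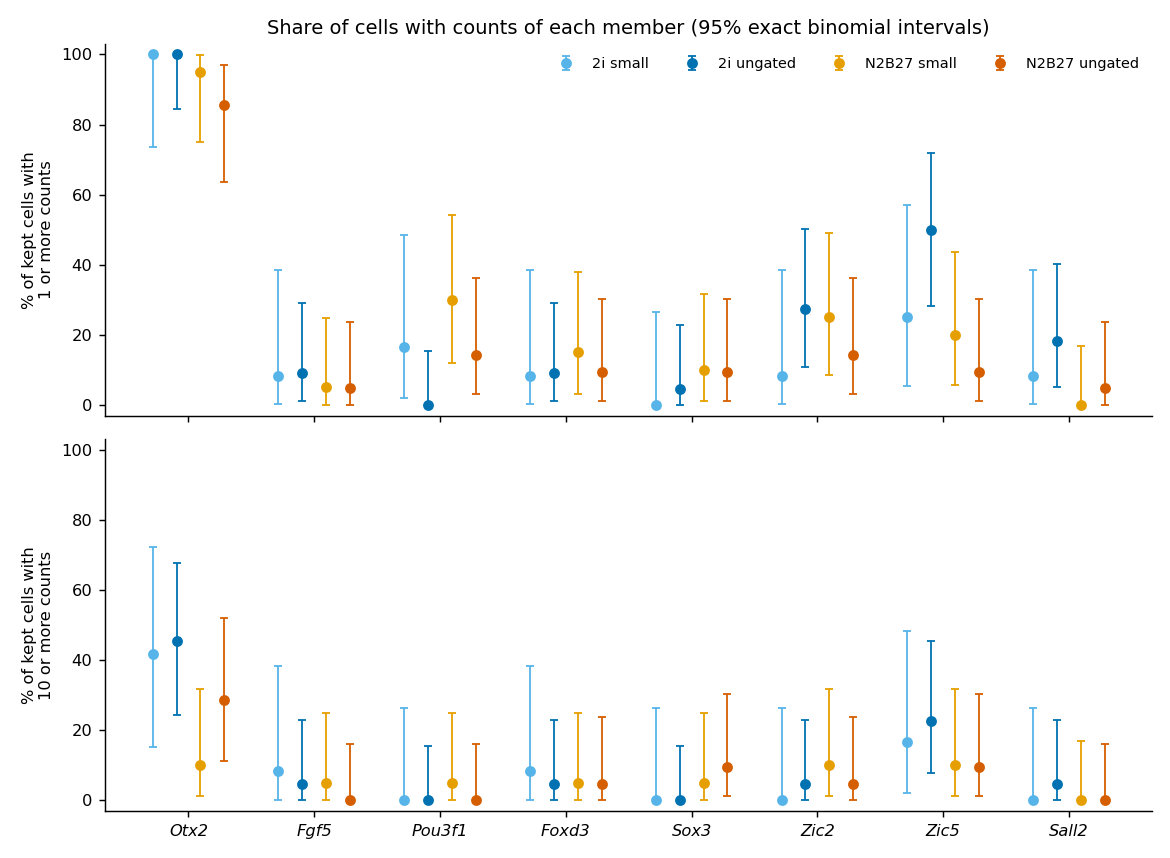
Share of kept cells with 1 or more counts (upper panel) and with 10 or more counts (lower panel) of each member, in percent, for the 4 groups; bars are 95% exact Clopper-Pearson intervals. For Otx2 the shares with 10 or more counts were 41.7, 45.5, 10 and 28.6%, with overlapping intervals.

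At 10 or more counts, Otx2 was present in 44.1% of the cells in 2i (27.2 to 62.1%, Clopper-Pearson) and in 19.5% of those in N2B27 (8.82 to 34.9%). These shares pool the samples of both gates in unequal parts, 12 small and 22 ungated cells in 2i and 20 and 21 in N2B27. Among the cells with 10 or more counts, the median was 40 counts in 2i and 204 in N2B27. Between small cells the share at 10 or more counts differed by -31.7 points, N2B27 minus 2i (Newcombe interval -59.0 to -1.61). That difference depended on the 2 cells of 2i small that stand apart, which held 19 and 14 counts. Without them it was -20 points, with an interval from -51.2 to 7.81 that takes in 0. Between ungated cells the shares differed by -16.9 points (-41.6 to 11.4). Thinning each cell to 1300000 counts left 10 or more counts in 3, 9, 1 and 5 cells of the 4 groups. The mean of Otx2 was 54.7 normalized counts in N2B27 ungated and 30.9 in 2i ungated, a log2 ratio of 0.80. It was above 0 in 16 of 17 settings and -0.50 as a difference of mean log2 values, a setting that moved the median of all genes by -0.56. Between small cells it was 23.4 in N2B27 and 31.6 in 2i, a log2 ratio of -0.41. Without the small 2i cell of high spike-in share it was -0.11, without the highest cell of each group -2.41, and with no filter on cells 0.85. Within N2B27 the small cells were lower than the ungated, with a log2 ratio of -1.19 that was below 0 in all 17 settings tried. For every member, the 17 settings include the main one and changes of the minimum mean, which leave a log2 ratio as it is. In 2i the log2 ratio between gates was 0.03 and ran from -1.24 with no filter on cells to 2.05 with fixed limits, above 0 in 9 settings and below 0 in 8.

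The ZIC factors are zinc finger proteins that hold enhancers of the primed epiblast, and Zic5 was the second most widespread member. Small cells had a count in 3 of 12 cases in 2i and 4 of 20 in N2B27, ungated cells in 11 of 22 in 2i and 2 of 21 in N2B27. The highest counts in 2i ungated were 160, 157, 118, 88 and 61, and the remaining 6 cells with a count held 1 to 8. In N2B27 ungated the 2 cells held 190 and 21 counts. In N2B27 small the counts were 108, 50, 1 and 1 and in 2i small 70, 48 and 1. Thus high cells existed in both media, but fewer ungated cells had any count in N2B27. The share with a count was 9.52% in N2B27 ungated and 50% in 2i ungated, a difference of -40.5 points (-60.9 to -13.1), and both shares were the same in thinned cells. This was the only 1 of 32 such intervals, over 8 members and 4 comparisons, that left out 0, and at 10 or more counts the Otx2 difference between small cells was the only 1 of another 32. The log2 ratio of Zic5 between ungated cells was -1.48, from a mean of 9.45 normalized counts in N2B27 and 28.2 in 2i, and it was below 0 in all 17 settings. In 2i the small cells were lower than the ungated, with a log2 ratio of -1.42, which turned to 0.88 with size factors from the spike-ins, a setting that moved the median of all genes by 1.15.

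Zic2, the neighbour of Zic5, had a count in 1, 6, 5 and 3 cells of the groups. In N2B27 small 1 cell held 309 counts, 92.2% of the group's 335, and the other 4 cells held 21, 3, 1 and 1. In 2i ungated 1 cell held 59 counts and 5 held 1 to 4. In N2B27 ungated the counts were 13, 1 and 1, and in 2i small the only cell held 4. Its log2 ratio between small cells, 3.64, therefore rested on 1 cell. It was above 0 in all 17 settings but was 1.02 with the highest cell of each group left out and 0.65 as a difference of mean log2 values. Between ungated cells the log2 ratio was -1.46, or -0.38 without the highest cells. The transcript 2610035F20Rik lies between both ZIC genes on the minus strand. It had 118 and 201 counts in a pair of 2i small cells that held neither Zic2 nor Zic5.

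Fgf5, a secreted growth factor and the classic marker of the egg cylinder epiblast, was counted in 5 of 75 cells. The cells with 10 or more counts were 1 of 2i small (29 counts), 1 of 2i ungated (159) and 1 of N2B27 small (77). N2B27 ungated had 1 count in 1 cell. High Fgf5 was thus seen in 2 cells in 2i and in 1 cell in N2B27. With 1 count against 160, the log2 ratio of counts between ungated cells, after scaling each group by its summed size factors, was -7.26 (-12.6 to -4.76, exact, counting error only), and the 160 counts came almost all from 1 cell (99.4%). With the highest cell of each group left out, the log2 ratio of means moved from -2.75 to -0.07.

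Pou3f1, a POU factor also called OCT6, was counted in 9 of 41 cells in N2B27 and in 2 of 34 in 2i. In N2B27 small, 6 cells held 48, 2, 1, 1, 1 and 1 counts, and in N2B27 ungated 3 cells held 3, 1 and 1. The 2 cells with a count in 2i, both small, held 1 each. Of the ungated cells 0 of 22 held any, which allows a share of up to 15.4% of cells with a count (exact upper limit). Only 1 cell was above 3 counts, so that most of these cells held 1 to 3 reads. Its share with a count was 13.3 points higher in N2B27 between small cells (-18.8 to 38.3) and 14.3 points higher between ungated cells (-3.25 to 34.6). Neither interval left out 0.

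Sox3, a SOXB1 factor of the epiblast and early neural plate, had 10 or more counts in 3 cells of N2B27 and in no cell of 2i. These cells held 31 counts in N2B27 small and 24 and 16 in N2B27 ungated. In 2i a single count was found in 1 ungated cell and none in the 12 small cells, which allows a share of up to 26.5%. Set against a floor of 3 counts over 2i small, the scaled counts of Sox3 in N2B27 small were 7.42-fold higher. The log2 ratio of means between small cells was 1.29, and Sox3 was under the minimum mean of 10 normalized counts. Between ungated cells the log2 ratio of counts, scaled by the summed size factors, was 5.39 (2.83 to 10.7, counting error only). These values came from 1 or 2 cells of N2B27 per group, so they do not bound a change of the whole group. The shares with a count differed by 10 points between small cells (-15.3 to 30.1) and by 4.98 points between ungated cells (-13.6 to 24.7).

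Foxd3 is a forkhead repressor that is expressed from the naive epiblast onwards. It had counts in 1, 2, 3 and 2 cells of the groups. The highest cell held 71, 13, 55 and 187 counts in that order, and the other cells 2 to 9. The log2 ratio between ungated cells was 2.05, but it was -0.05 with the highest cell of each group left out, as 1 cell of N2B27 ungated held 95.4% of its group's counts. In the cell with 187 counts of Foxd3, the adjacent antisense gene Gm12682 held 136 counts, which was all that N2B27 ungated had of it. The adjacent Gm12688 held 61 counts in another N2B27 ungated cell without Foxd3.

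Sall2, a zinc finger factor of the Spalt family, was counted in 5 of 34 cells in 2i and in 1 of 41 in N2B27. In 2i ungated the cells held 76, 6, 3 and 1 counts, in 2i small 3, and in N2B27 ungated 4. No cell of N2B27 small had a count, which allows a share of up to 16.8%. The log2 ratio between ungated cells was -1.93 and below 0 in all 17 settings, but 1 cell held 88.4% of the counts of 2i ungated, and the ratio was -0.75 without the highest cell of each group and -0.47 as a difference of mean log2 values. Its mean was under the minimum for a comparison, and the shares with a count differed by -13.4 points (-34.1 to 7.53).

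**Figure D3:**
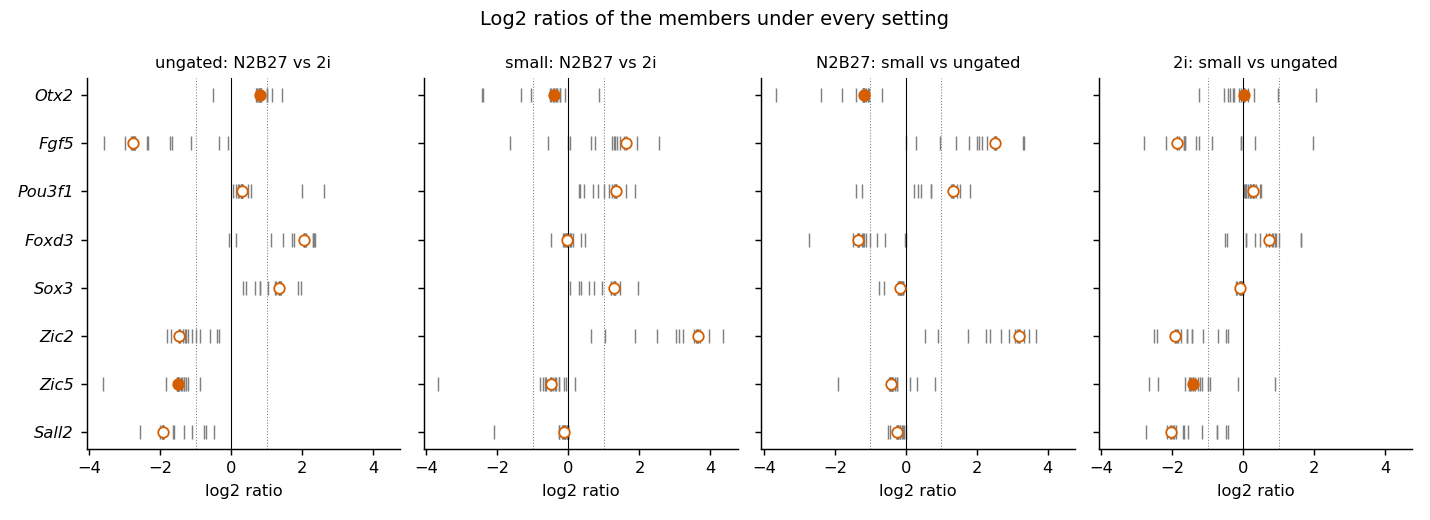
Log2 ratios of mean normalized counts (pseudocount of 1) for each member in the 4 comparisons. Filled circles mark members whose mean over both groups reached 10 normalized counts, open circles those below it, and ticks the values under the alternatives; dotted lines mark 2-fold. Otx2 and Zic5 alone have filled circles, and Zic5 lies left of the line for ungated cells (-1.48).

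A gene was compared where the mean of both groups was at least 10 normalized counts, and called at 2-fold. Between ungated cells, N2B27 against 2i, 2 members could be compared and 0 were called higher, where 10.4% of 10289 genes were, and 1 (Zic5) was called lower, where 11.9% were. Between small cells only Otx2 could be compared and it was called in neither direction, where 25.3% of 9990 genes were higher and 20.4% lower. Within N2B27, small against ungated, Otx2 was the only member compared and was called lower, as were 18.7% of 10267 genes, while 15.1% were higher. Within 2i, Zic5 of the 2 members compared was called lower, as were 28.8% of 10067 genes, while 17.8% were higher. With 1 or 2 members compared, no share of the members can be set against these backgrounds.

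Shares of cells allow all members with a count to be compared. A share with a count that was higher by 20 points or more in N2B27 was found for no member between ungated cells, beside 1.89% of all genes, and lower for Zic5, beside 14.4%. Between small cells it was found for no member in either direction, beside 5.87% higher and 10.9% lower. At 10 or more counts, no member of 7 differed this way between ungated cells, beside 1.02% of genes higher and 19.1% lower. Between small cells Otx2 alone of 7 was lower, beside 12.1%, and none was higher, beside 3.28%. Apart from Otx2 and Zic5, no member had 10 or more counts in over 10% of the cells of a group. A difference of 20 points at this level therefore could not arise for them.

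**Figure D4:**
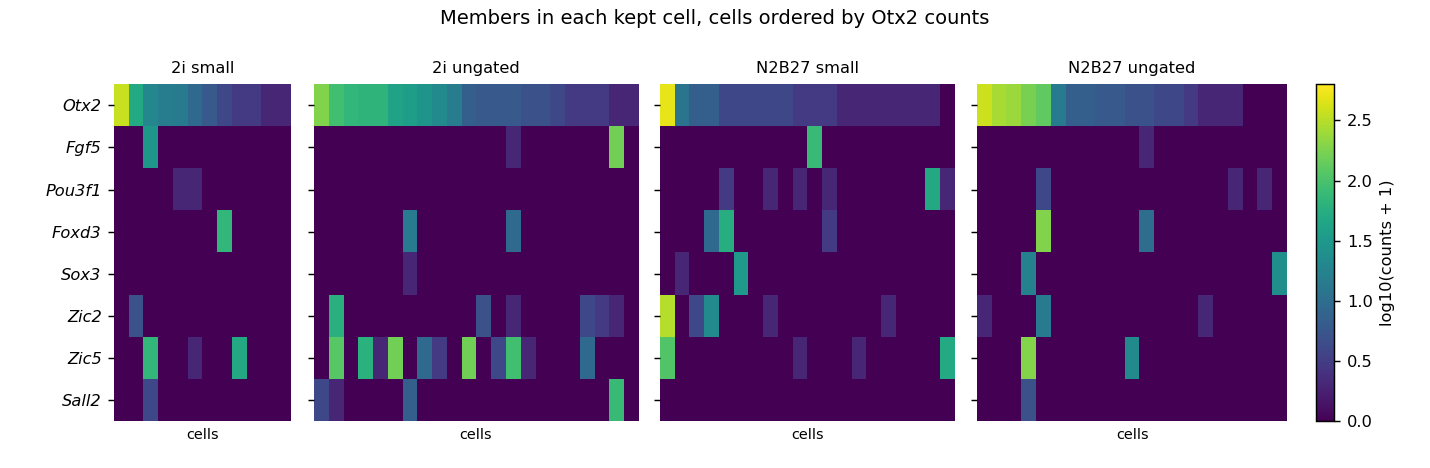
Counts of the 8 members (rows) in each kept cell (columns), as log10(counts + 1), with the cells of each group in order of Otx2. Of the 23 cells with 10 or more counts of Otx2, 6 also held as many of Zic5.

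At 1 or more counts, 6 of 12, 16 of 22, 14 of 20 and 7 of 21 cells held 2 or more members, and at 10 or more counts 1, 5, 1 and 2 cells did. The median number of members with a count was 1.5, 2, 2 and 1 in the groups, and at 10 or more counts it was 1, 1, 0 and 0. At least 1 member at 10 or more counts was present in 7 of 12, 13 of 22, 8 of 20 and 8 of 21 cells. Such numbers per cell were not computed for other sets of genes, so they are only a description. Among all genes, shares at 10 or more counts lower by 20 points or more in N2B27 outnumbered higher ones. They were 19.1 against 1.02% between ungated cells and 12.1 against 3.28% between small cells. Of the 23 cells with 10 or more counts of Otx2, 6 also held as many of Zic5, 3 of Zic2, 2 of Foxd3, 1 of Fgf5 and 1 of Sox3. Pou3f1 never reached 10 counts in a cell in which another member did.

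In all, 5 cells held 3 members at 10 or more counts, 1 in each group but N2B27 ungated, which had 2. In N2B27 small it was a cell called G2/M with 499 counts of Otx2, 309 of Zic2 and 108 of Zic5, the highest of its group for all 3. This cell had 7386 genes detected, rank 11 of 20. Of its naive genes, Klf4 (648 counts) was the highest of the group and Esrrb (839) ranked 2, Zfp42 (4296) ranked 5, while Nanog had 4 counts and ranked 18. Etv4 had 0 counts in it. It also had the most Dnmt3b, 1492 counts, a de novo methyltransferase of the formative state. In N2B27 ungated, 1 cell held 167 counts of Otx2, 190 of Zic5 and 16 of Sox3, and ranked 1 of 21 in genes detected (9631) and 2 in Etv4 with 562 counts. In that cell Dnmt3b (62 counts) ranked 14 and Tcf15 (1 count) 17, and the naive genes ranked from 1 (Tbx3, 173 counts) to 20 (Zfp42, 1324 counts). The other cell held 131 of Otx2, 187 of Foxd3 and 13 of Zic2, with 8412 genes detected. In 2i ungated, a cell with 9462 genes held 88 of Otx2, 59 of Zic2 and 118 of Zic5, and its naive genes ranked from 1 (Klf5, 667 counts) to 19 (Tcl1, 112 counts) of 22, with Nanog (1541) at 3 and Esrrb (53) at 15. In 2i small it was the cell with 15712 genes, one of those that stand apart, with 19 of Otx2, 29 of Fgf5 and 70 of Zic5.

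The small gate was set to take cells just after mitosis and in G1, so members were also read by phase, called per cell with cyclone on the same libraries. In N2B27 small, 0 of 6 cells in G1, 6 of 11 in S and 2 of 3 in G2/M held 10 or more counts of a member. In N2B27 ungated it was 0 of 2 in G1, 1 of 4 in S and 7 of 15 in G2/M. In 2i small it was 4 of 6 in G1, 2 of 5 in S and 1 of 1 in G2/M, and in 2i ungated, without cells in G1, 4 of 7 in S and 9 of 15 in G2/M. The absence from G1 in N2B27 depended on the phase calls, since with Seurat's gene scores 1 of 6 and 1 of 3 cells in G1 held 10 or more, Fgf5 and Zic5 respectively. For Otx2, 0 of 8 cyclone G1 cells in N2B27 reached 10 counts, and neither did any of the 9 Seurat G1 cells. In 2i small, 2 of 6 cyclone and 2 of 5 Seurat G1 cells reached it, and in 2i ungated 0 of 2 Seurat G1 cells. With so few cells in G1 and no share over all genes by phase, these counts are only a description. The cell of N2B27 with the most Otx2 was in G2/M, as were both small cells with 10 or more counts.

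**Figure D5:**
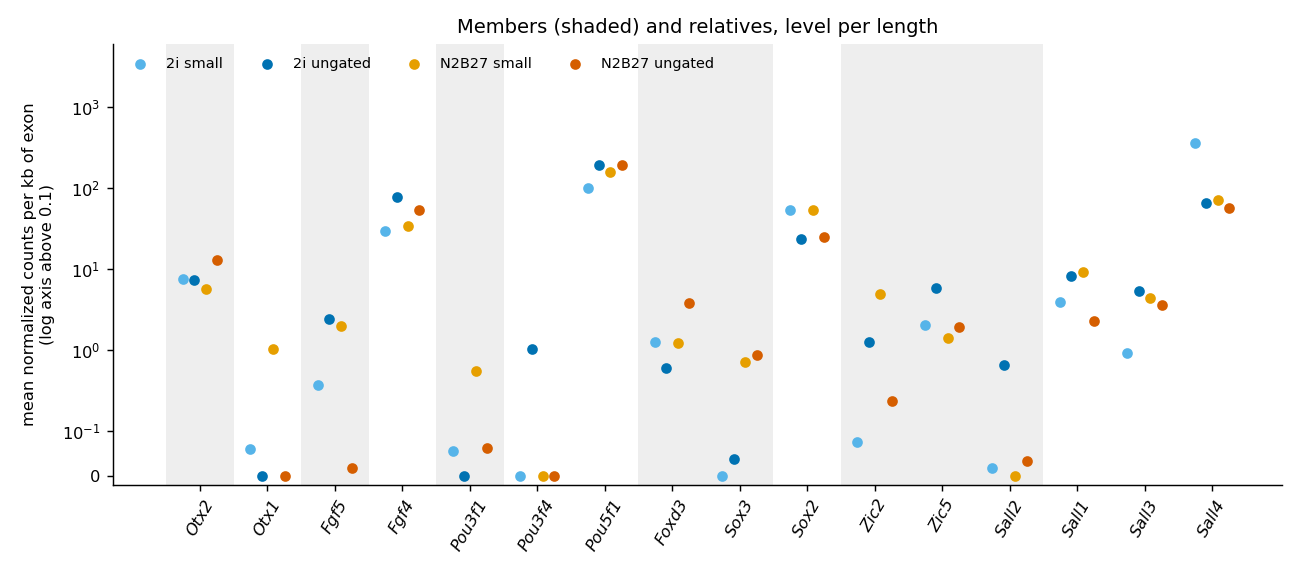
Mean normalized counts per kilobase of exon (logarithmic axis above 0.1) of the members (shaded) and of relatives with counts, in the 4 groups. Members reached at most 12.96 (Otx2 in N2B27 ungated), while Pou5f1, Sox2, Sall4 and Fgf4 lay at 23.2 or above.

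Among the relatives of the members, Pou5f1, Sox2, Sall4 and Fgf4 were counted in most cells of every group, and at a higher level than any member. Per kilobase of exon, Otx2 had 7.48, 7.32, 5.55 and 12.96 normalized counts, the highest level among members in each group. Its relative Otx1 was counted in 1 cell of 2i small and 1 of N2B27 small, and Crx in none. For the POU family, Pou5f1, the core factor OCT4, had 98.7, 191, 155 and 189 per kilobase, while Pou3f1 reached at most 0.54. Pou3f4 was counted in 2 cells of 2i ungated, and Pou3f2 and Pou3f3 were listed at 0. Among SOXB1 factors, Sox2 had 23.2 to 53.6 per kilobase, Sox3 at most 0.85, and Sox1 was listed at 0. Zic5 reached at most 5.76 per kilobase and Zic2 at most 4.92, and Zic1 and Zic4 were listed at 0. Of the Spalt factors, Sall4 had 56.6 to 357 per kilobase, Sall1 2.27 to 9.21 and Sall3 0.90 to 5.27, all above Sall2, which had at most 0.64. The 357 of Sall4 was in 2i small, the group with the cells that stand apart. Fgf4, the FGF of naive cells, had 29.5 to 76.7 per kilobase against at most 2.39 for Fgf5, and Fgf6 was listed at 0. Foxd1, Foxd2 and Foxd4 had no counts in any kept cell.

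The remaining formative and primed genes differed from the members in that many were well counted in both media. Of 23 such genes, 15 could be compared between ungated cells. Of these, 3 were at least 2-fold higher in N2B27 (10.4% of all genes were) and 0 lower (11.9%), with a median log2 ratio of 0.45 beside -0.02 over all genes. The highest was Etv4, an ETS factor induced by ERK signalling, with a log2 ratio of 4.21 and 10 or more counts in 16 of 21 cells of N2B27 ungated against 2 of 22 of 2i ungated. Tcf15, a bHLH factor of primed cells, followed with 1.91, then Foxp1 with 1.12 and Tdgf1, a Nodal co-receptor, with 0.80. At the other end were Lin28a (-0.58), Dnmt3b (-0.21), the Hippo effector Tead2 (-0.07) and Etv5 (0.12). Between small cells 15 could be compared, 5 were at least 2-fold higher in N2B27 (25.3% of all genes were) and 1 lower (20.4%), with a median of 0.70 beside 0.11 over all genes. Etv4 thus had 10 or more counts in 26 of 41 cells in N2B27, and Otx2 in 8.

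Genes of other lineages were checked in the same cells. Their part in the values of the members was not tested. The neural list (1 or 2 of 6 genes with counts in each group) was led by Pax6, which had 10 or more counts in 6 of 12, 9 of 22, 9 of 20 and 8 of 21 cells, and its defining marker Sox1 was at 0. The summed level of the list ran from 0 to 176 normalized counts in 2i small, 302 in 2i ungated, 806 in N2B27 small and 364 in N2B27 ungated. The primitive endoderm list (2 to 4 of 6) was led by Gata4, with 6, 157, 241 and 513 counts in 1, 1, 4 and 3 cells, and its sum reached 2.69, 137, 201 and 533. The streak and mesendoderm list (2 to 4 of 6) was led by Gsc in 2i small (557 counts) and by Eomes elsewhere (72 to 406), with sums up to 1024, 121, 286 and 146. The trophoblast list (3 or 4 of 5) was led by Cdx2 in 2i and by Gata3 in N2B27, with sums up to 287, 269, 436 and 352. The fibroblast list had counts of 1 or 2 of 6 genes, led by Pdgfrb outside 2i small, with sums up to 0.67, 115, 107 and 90.1. Zscan4c, of the 2-cell-like list, had 2 counts in each of 2i ungated and N2B27 small, and the list was at 0 in the other groups. The median summed level was 0 for the endoderm, streak, 2-cell-like and fibroblast lists in every group.

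No member but Otx2 was counted in 50% or more of both small and ungated N2B27 cells, so likeness was described for it alone. Among 6487 genes counted this widely, the most alike by the lower of its 2 Spearman rho values were Gm7589 (0.62 over 20 small cells and 0.57 over 21 ungated cells), Ncaph2, a condensin II subunit (0.65 and 0.53), and Ctdsp2, a phosphatase (0.52 and 0.56). These cells share plate and lane. In the same cells, rho between Otx2 and the number of genes detected was 0.12 and 0.50, and with the spike-in share -0.11 and -0.40. Of the naive genes, Esrrb and Klf4 had rho of 0.51 and 0.53 with Otx2 in small cells but 0.06 and 0.04 in ungated cells. Zfp42, which encodes REX1, had -0.07 and -0.01, and Nanog -0.04 and 0.09. With Zic2 the values were 0.56 and 0.23.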

How the data were processed

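Single-cell RNA-seq was measured in 4 samples of 24 ES cells. The authors trimmed Smart-seq2 reads with Trim Galore 0.4.4, aligned them to GRCm38 with GSNAP and counted them per gene with HTSeq on Ensembl genes, per the paper and the submitters' processing notes. The deposited values are raw counts per gene and cell, neither normalized nor filtered. Columns were matched to samples through the deposited list of sequencing runs. Otx2 shares 5112 bases with Otx2os1 on the other strand, and without strand their reads cannot be told apart there. Rows that name no gene (27.6% of counts) stayed out of totals. Symbols and positions came from GENCODE M21, of the same build, for 45143 of 46078 genes.

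Cells beyond 3 median absolute deviations on their plate in counts, genes or mitochondrial share were left out. The limits were thus looser in 2i, at 307960 counts, 4435 genes and a mitochondrial share of 5.16%. In N2B27 they were 1250614 counts, 5316 genes and 4.67%. No doublet caller was run on these singly sorted cells. Size factors came from DESeq2 1.42.0 (median ratio over 75 cells) and phases from cyclone in scran 1.30.0 and from Seurat 5.3.0, in R 4.3.3. Other steps used pandas 2.3.3, scipy 1.17.1, numpy 2.4.6 and matplotlib 3.10.9 in Python 3.11.15. Groups were compared by the log2 ratio of mean normalized counts with a pseudocount of 1, at a minimum mean of 10 and a fold of 2. This scale understates the change of low genes. The method in the paper, an adjusted p from DESeq2, was not used because each group is 1 sample. Intervals are Clopper-Pearson for shares, Newcombe for differences between shares and exact for ratios of counts, which were scaled by the groups' summed size factors. They cover counting error only, since reads without molecular identifiers are not independent molecules. A count of 0 was set against a floor of 3 counts over a group, and a share of 0 was given its exact upper limit. The comparison was tested on simulated data with known fold changes.

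The 8 members and all lists were chosen with earlier results of these data known. Besides the members, the text names the close relatives (1 gene is not reported here), the 4 other formative or primed genes with the largest and the 4 with the smallest log2 ratio between ungated cells, the top gene of each list of another cell type, naive genes as correlates, and the 3 genes most like Otx2. Genes adjacent to members and the genes given for single cells with 3 members were chosen after their values were seen. Alternatives covered the filter on cells, size factors (CPM, scran, poscounts, spike-ins), the summary over cells, thinning to 1300000 counts, pseudocounts of 0.5 and 5, the minimum mean (none or 50), the detection limit, phase calls and the cells that stand apart. Leaving out both of these at 10 or more counts was added after seeing the data.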

Additional observations from a re-analysis of the deposited data

Results flagged for a closer look

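Fgf5 and Zic2 had log2 ratios between N2B27 and 2i that were past 2-fold in opposite directions in the 2 gates. Fgf5 was at -2.75 in ungated cells and at 1.61 in small cells, and Zic2 at -1.46 and 3.64. Over the 17 settings, Fgf5 ran from -1.65 to 2.54 in small cells, above 0 in 14 and below 0 in 2. In ungated cells it stayed below 0 but was as near to it as -0.07. Zic2 kept its direction in all 17 settings in both gates. The difference between gates was not tested, since each group is 1 sample. In every group, 1 cell held at least 84.3% of the counts of either gene, and both genes were below the minimum mean of 10 normalized counts in all 4 comparisons.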

How the results depend on the processing

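Each group is 1 sample, so no replicate could be left out. No paired analysis was possible because no group has a second sample. Between ungated cells (N2B27 against 2i), the number of members at least 2-fold higher moved from 0 to 1 (Otx2) with no filter on cells, fixed limits, poscounts factors or summed raw counts, and to 2 (Foxd3 and Sox3) with no minimum mean. The number lower moved from 1 (Zic5) to 0 with no filter on cells, spike-in factors or a minimum mean of 50, and to 4 (with Fgf5, Zic2 and Sall2) with no minimum. Between small cells, 4 (Fgf5, Pou3f1, Sox3 and Zic2) were higher with no minimum, 1 (Otx2) was lower with fixed limits or mean log2 values, and 3 (Otx2, Fgf5 and Zic5) with spike-in factors, each from 0. Within N2B27 (small against ungated), 3 (Fgf5, Pou3f1 and Zic2) were higher with no minimum, from 0. The number lower moved from 1 (Otx2) to 0 with poscounts factors or a minimum of 50, to 2 (with Zic5) with spike-in factors and to 2 (with Foxd3) with no minimum. Within 2i, 1 was higher with fixed limits (Otx2) and 1 with spike-in factors (Fgf5), from 0. The number lower moved from 1 (Zic5) to 0 with scran, poscounts or spike-in factors, mean log2 values, thinning or a minimum of 50, and to 4 (with Fgf5, Zic2 and Sall2) with no minimum. Among members past 2-fold and at the minimum mean of 10, Zic5 within 2i changed sign, to 0.88 with spike-in factors. Below that mean, Fgf5 changed sign between small cells (1.61, lowest -1.65) and within 2i (-1.86, highest 1.95). Foxd3 did so between ungated cells (2.05, lowest -0.05) and within N2B27 (-1.36, highest 0.005), and Pou3f1 within N2B27 (1.32, lowest -1.40). Otx2, under 2-fold, changed sign between ungated cells (-0.50), between small cells (0.85) and within 2i (-1.24 to 2.05). Counted at 10 or more counts, the median number of members per cell was 1 in 2i ungated and 0 in both N2B27 groups. Of log2 ratios, 392 moved by less than the counting error used as the spread and 119 by more. The 392 include those under another minimum mean, which cannot change a log2 ratio. Spike-in factors moved the median of all genes by -1.68 to 1.15, and poscounts factors by 0.19 to 0.71. With 12 to 22 cells per group, a group without a count of a member allows up to 26.5% of cells with a count (exact upper limit for 12 cells).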
